A study of Bos taurus with 18 samples.

Results

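The loci described here are the unannotated transcribed loci of a cattle leukocyte count table whose transcript model has gaps, meaning that the summed length of the model is shorter than the distance from its first to its last base. A locus was taken when its model length was below its span, and 2273 of the 2555 unannotated loci met that rule. The other 282 were uninterrupted blocks, and the whole table held 30162 features, of which 27607 carry Ensembl identifiers. The smallest total gap among the 2273 loci was 20 bases, and every locus outside the rule had a gap of 0.

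The study sequenced leukocyte mRNA from 18 female cattle labelled as under heat stress, with 6 libraries from Red Angus, 6 from the F1 cross Red Angus x Droughtmaster and 6 from Droughtmaster. Red Angus is a Bos taurus beef breed and Droughtmaster a tropically adapted breed that carries zebu (Bos indicus) as well as Bos taurus ancestry. All 3 groups carry the heat stress label, so the comparisons are between breeds under one condition and there is no unstressed group. Leukocytes were taken as the white layer of centrifuged tail-vein blood, a mixture of neutrophils, lymphocytes, monocytes and other cells. No label states a pairing, a batch or that every library came from a different animal, so p-values measure the spread between these libraries only.

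A transcript assembled from sequencing reads gets a gap in its model where reads join distant stretches of the genome, as they do across an intron after splicing. Loci of this kind in vertebrate genomes include long non-coding RNAs, unannotated exons or ends of known genes, copies of gene families missing from an annotation, and models that join reads from separate transcripts. In leukocytes, receptor genes that are rearranged or duplicated between individuals are a known source of transcripts that a reference annotation holds in part. The deposited tables give no exon boundaries, so a gap is the total of all missing bases and the number of introns in a model is not known.

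Library totals ran from 11639027 to 24117615 counts, with a mean of 20090483 in Red Angus, 18008193 in F1 and 16213487 in Droughtmaster. Droughtmaster replicate 3 stood apart: 44.6% of its counts fell on 1 feature that held at most 0.410% of any other library. Identifiers were not paired with gene symbols, so leukocyte markers were not checked here, and which annotated genes the loci adjoin was not analysed here.

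The 2273 gapped loci had a median span of 4320 bases and a median model length of 499 bases on ARS-UCD1.2. Spans ranged from 260 to 1524002 bases and model lengths from 200 to 38017 bases. The model covered a median of 18.3% of the span, and this ratio is used below to order the loci in 4 classes of 568 or 569, from class 1 (up to 5.47%) and class 2 (up to 18.3%) to class 3 (up to 46.9%) and class 4 (up to 99.7%). It was under 10% at 812 loci (35.7%) and over 90% at 82 loci (3.61%).

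Most gaps were long. At 1613 loci (71.0%) the gap reached 1000 bases, and at 40 it reached 100 kb, whereas 49 loci (2.16%) had a total gap under 70 bases, of which 26 had enough counts to be tested. Across the 2273 loci the ratio fell with span (Spearman rho = -0.74) and rose more loosely with model length (rho = 0.34). Ratio, span and model length share their terms, so these 2 values describe the shapes of the models and are no test.

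**Figure D1:**
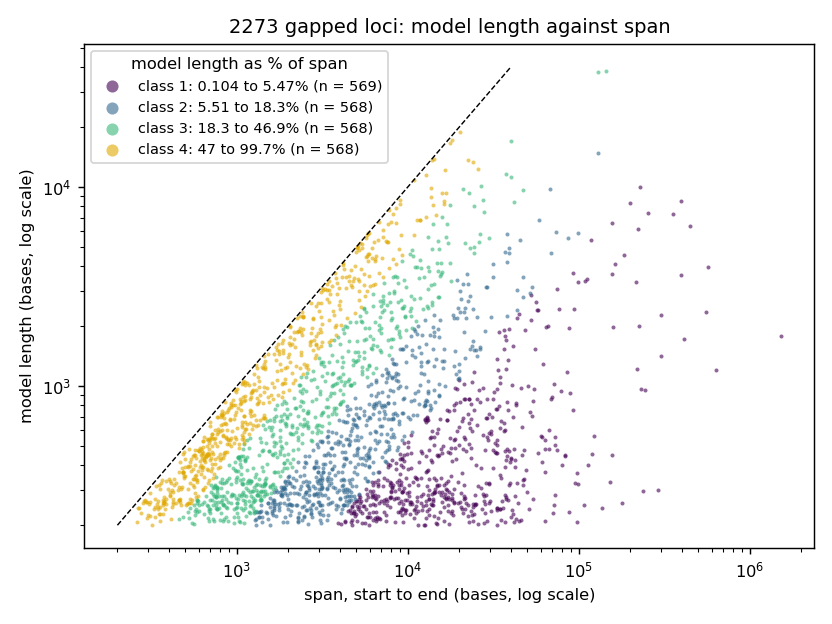
Model length against span for the 2273 gapped loci, both in bases on log axes, coloured by class of model length as a percentage of span; the dashed line marks a model without a gap. Class 1 lies between 0.104% and 5.47% and furthest from the line, and class 4 lies between 47.0% and 99.7%.

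Named extremes show the range of models. The lowest ratio, 0.104%, belonged to chr13:4192228-4481691, a model of 300 bases over 289464 with 14 counts in all, and chr10:1817958-2055982 (0.124%) had 10 counts in 2 libraries. At the locus with the longest span, chr22:40107055-41631056, the model of 1780 bases covered 0.117% of 1524002 bases. That locus was nevertheless present in all 18 libraries, at 0.605, 1.80 and 3.70 CPM (counts scaled by library total; lowest, median and highest) in Red Angus, 0.601, 1.85 and 2.37 in F1 and 1.198, 1.98 and 3.17 in Droughtmaster, and the 3 groups overlapped.

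Among tested loci the next lowest ratios were at chr10:24927398-25172087 (0.389%) and chr23:12059215-12472994 (0.415%). The highest ratios were at chr22:16008034-16018887, chr26:34363428-34368688 and chr16:44203779-44209634, whose total gaps were 34, 20 and 25 bases in models of 10820, 5241 and 5831 bases. All 3 were detected in every library with group medians between 10.04 and 25.1 CPM, and their groups overlapped.

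Gapped loci lay on all 30 chromosomes of the table (1 to 29 and X), with 1117 on the plus and 1156 on the minus strand, and 82 lay on 47 unplaced scaffolds. Chromosome 10 had the most (130), followed by chromosome 5 (127) and chromosome 18 (120), and chromosome 20 had the fewest (21). The median ratio on chromosome 10 was 41.8%, the highest of any chromosome. Loci on unplaced scaffolds had a lower median ratio (8.67%) and a longer median span (8971.5 bases) than placed loci (18.8% and 4224 bases).

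Another unannotated locus was often close by. The nearest lay within 10 kb for 642 gapped loci (28.2%), 337 times on the same strand and 305 times on the opposite strand, against a median distance of 77.3 kb. Overlap with another unannotated locus occurred on the opposite strand at 186 loci and on the same strand at 136. The sources used here do not say whether strand was used in counting, and counts at overlapping pairs may hold reads from either member.

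Gapped loci were mostly detected in some libraries rather than all. At least 1 count was present in all 18 libraries at 683 loci (30.0%), in 6 to 17 libraries at 1164, in 1 to 5 libraries at 373 and in none at 53. No gapped locus had counts in 5 or more libraries of a single breed group and 0 in the other 12, and no locus absent from a whole group was present in 10 or more of the other 12. The differences below are given as levels. Some called loci were also detected in fewer libraries of the low group.

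Detection rose with the share of the span that the model covered. In class 1 15.6% of loci had counts in all 18 libraries, and in classes 2 to 4 24.5%, 31.9% and 48.2%. The part that passed the filter for testing rose in the same order, from 22.5% through 36.4% and 43.3% to 56.7%. Model length rose with it, from a median of 325 bases in class 1 to 757 in class 4, and its part in detection was not tested.

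**Figure D2:**
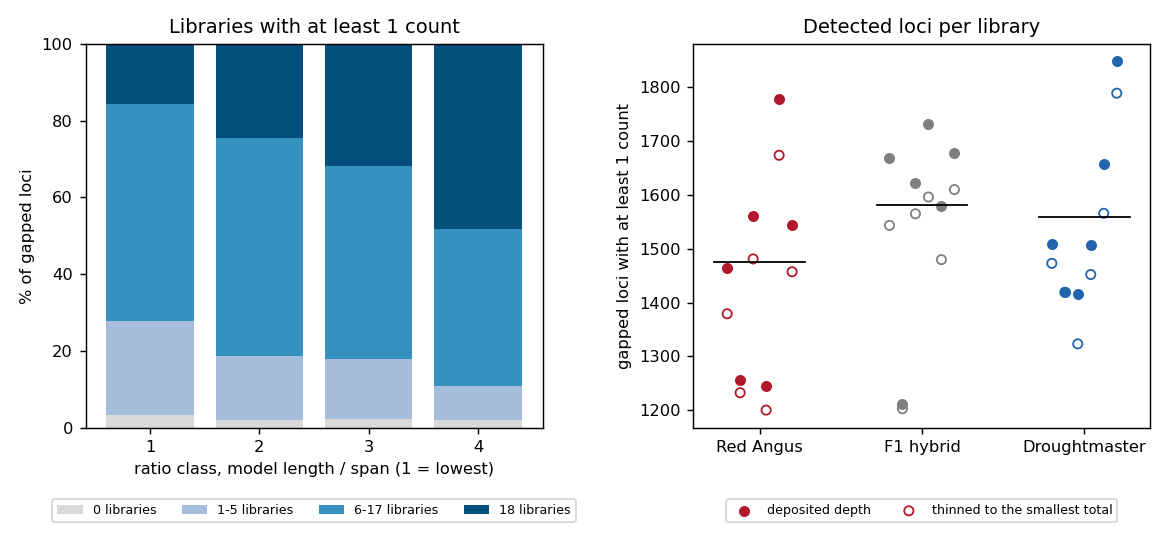
Left, the percentage of gapped loci detected in 0, 1 to 5, 6 to 17 or all 18 libraries, by ratio class; right, the number of gapped loci with at least 1 count in each library, with filled points at deposited depth, open points after thinning to the smallest total and bars for the mean of 6 at deposited depth. Loci found in all 18 libraries went from 15.6% in class 1 to 48.2% in class 4, and the libraries of the 3 groups overlapped within a range of 1212 to 1847 loci.

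Libraries held 1474.5 ± 202 detected gapped loci in Red Angus, 1581.7 ± 188 in F1 and 1559 ± 166 in Droughtmaster (SD, n = 6 each). When every library was thinned to 11639027 counts the means were 1403.9, 1499.2 and 1503.4, and the groups still overlapped. The fewest, 1212, were in F1 replicate 2 and the most, 1847, in Droughtmaster replicate 6. The same libraries were lowest and highest over all features, with 15507 and 19605 detected. The group means over all features were 17127.2 in Red Angus, 17927.5 in F1 and 17912.2 in Droughtmaster.

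Gapped loci took 0.699 ± 0.223% of counts in Red Angus, 0.747 ± 0.110% in F1 and 0.832 ± 0.328% in Droughtmaster (SD, n = 6 each). The lowest share, 0.377%, was in Droughtmaster replicate 3 and the highest, 1.40%, in Droughtmaster replicate 6, so the Droughtmaster libraries enclosed the range of both other groups. With the 1 dominant feature of replicate 3 set aside, the Droughtmaster mean was 0.884 ± 0.261%. Class 4 loci held 39.7 ± 2.42% of the gapped counts in Red Angus, 40.9 ± 2.00% in F1 and 42.4 ± 2.92% in Droughtmaster, and class 1 loci 10.3 ± 0.731%, 10.8 ± 1.06% and 9.85 ± 0.584% in the same order.

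Counts were unevenly spread over the loci. The 10 most abundant gapped loci held 26.1% of all gapped counts and the top 100 held 66.7%. Levels between loci are compared here as CPM per kilobase of model. Across all gapped loci the median level per kilobase rose over the classes from 0.360 through 0.505 and 0.529 to 0.750, but among the 903 tested loci it was 1.66, 1.24, 1.18 and 1.70, with no order.

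The highest level per kilobase was at chr18:54671753-54675897, where a model of 841 bases over 4145 reached 259 CPM per kilobase. Its libraries ranged from 95.1 to 512 CPM in Red Angus, 91.4 to 325 in F1 and 129 to 384 in Droughtmaster, with medians of 240, 166 and 206. Next came chr2:126660915-126665377 at 244 CPM per kilobase, with medians of 484 CPM in Red Angus, 385 in F1 and 227 in Droughtmaster and overlapping ranges (250 to 563, 241 to 527 and 197 to 523). Over the tested features with Ensembl identifiers the median level was 16.04 CPM, not scaled by length.

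The third, chr15:80950858-80952564, had 133 CPM per kilobase and the fourth, chr5:5588819-5628011, 80.2, the latter with a model of 4649 bases over 39193 and group medians of 366, 400 and 370 CPM in Red Angus, F1 and Droughtmaster. The remaining 4 of the 8 highest were chr16:47229170-47231514 (52.7 CPM per kilobase), chr12:51958362-52002891 (51.7), chr23:27780333-27786339 (43.8) and chr7:75360603-75361060 (43.2). Their ratios ran from 5.18% on chromosome 12 to 95.9% on chromosome 16, and none of the 8 passed the test in any comparison.

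Breed differences were tested with edgeR in 1 fit over 14446 features, of which 903 were gapped loci (39.7% of the 2273). The other 1370 gapped loci had too few counts. A locus passed this filter if 6 or more libraries reached 0.553 CPM, here with library totals left unscaled. Of the loci called below, 3 of the 22 higher and 1 of the 2 lower in Droughtmaster than in Red Angus had fewer than 6 such libraries outside the group where they were high, as did 3 of the 12 lower in F1 than in Droughtmaster. These loci entered the test only through the high group, and are marked where they are described; without them the 3 counts are 19, 1 and 9. A difference in a blood sample can reflect less RNA per cell or fewer cells of a type, and these cannot be told apart.

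Droughtmaster leukocytes had higher levels than Red Angus leukocytes at 22 gapped loci and lower levels at 2 (edgeR, adjusted p under 0.05). The background over all tested features was 1.5% higher and 1.1% lower, against 2.44% and 0.222% of the 903 gapped loci. The called increases ran from 1.196 to 6.93 on the log2 scale with a median of 2.23. The median fitted difference over the 903 gapped loci was 0.24 on the log2 scale, against -0.01 over all tested features, and 63.5% of gapped loci had a positive difference against 49.7%. The 104 tested unannotated loci without a gap had the same 63.5% positive, a median of 0.40 and 4 called higher (3.85%). The difference between the kinds was not tested. All tested features had a median level of 13.9 CPM, against 2.005 for the tested gapped loci. With no filter on low counts the median difference was 0.31 for gapped loci and 0.09 over all features. In the filtered fit at unadjusted p under 0.05 the gapped loci were near the background only in total, with 20.6% against 19.8%. By direction there were 128 higher and 58 lower gapped loci, against 1348 higher and 1508 lower over all 14446 tested features.

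These counts depended on the fit. DESeq2 called 68 gapped loci higher (4.48% of those it tested, background 3.98%) and 19 lower (1.25%, background 2.47%). A fit of Droughtmaster and Red Angus without the F1 libraries called 2 higher (0.249%, background 0.217%) and 0 lower (background 0.188%). Leaving out libraries gave between 8 higher (0.855%, without Droughtmaster replicate 6, background 0.535%) and 70 higher (7.49%, without Red Angus replicate 5, background 5.25%). The lower calls ran from 0 to 10, the latter also without Red Angus replicate 5 (1.07%, background 4.39%). Without Droughtmaster replicate 3 there were 13 higher (background 0.65%) and 0 lower (background 0.359%). The calls over all features moved with those over the gapped loci from setting to setting.

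Calls were more frequent among models that covered more of their span. Of the tested loci 1 of 128 was called higher in class 1 (0.781%), 2 of 207 in class 2 (0.966%), 6 of 246 in class 3 (2.44%) and 13 of 322 in class 4 (4.04%). Both lower calls were in class 2. The differences themselves did not follow the ratio: the median log2 difference was 0.17, 0.22, 0.29 and 0.27 over the 4 classes, and the ratio and the log2 difference had a Spearman rho of 0.04 across the 903 loci, which share the same 12 libraries. The spread between libraries of a group did fall with the ratio, from a median SD of 0.91 log2 CPM in class 1 through 0.87 and 0.79 to 0.74 in class 4.

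**Figure D3:**
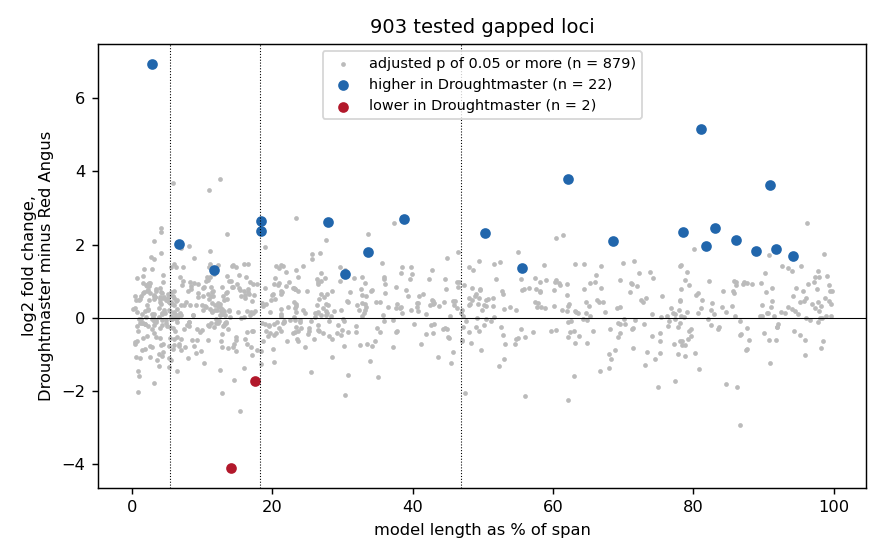
Log2 fold change of Droughtmaster minus Red Angus from the edgeR fit against model length as a percentage of span for the 903 tested gapped loci; dotted lines mark the limits of the classes. The 22 loci called higher reach from 1.196 to 6.93, with 13 of them in class 4, and the 2 called lower are both in class 2.

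With 4 classes of equal size drawn over the 903 tested loci instead, the counts called higher were 2, 3, 7 and 10. The share of tested loci called higher was largest in class 4 in 21 of the 23 other settings and in class 3 in 2. One of these 2 was the fit of the 2 parental groups alone, whose 2 calls were both in class 3. The settings reuse the same libraries, so they are not independent and their tally is no test. The 24 loci called between Droughtmaster and Red Angus had a median ratio of 52.95% against 27.8% for all tested gapped loci, a median model length of 3062.5 against 1346 bases and a median level of 4.87 against 2.00 CPM. What part length and level have in the higher rate of calls at high ratios was not tested.

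**Figure D4:**
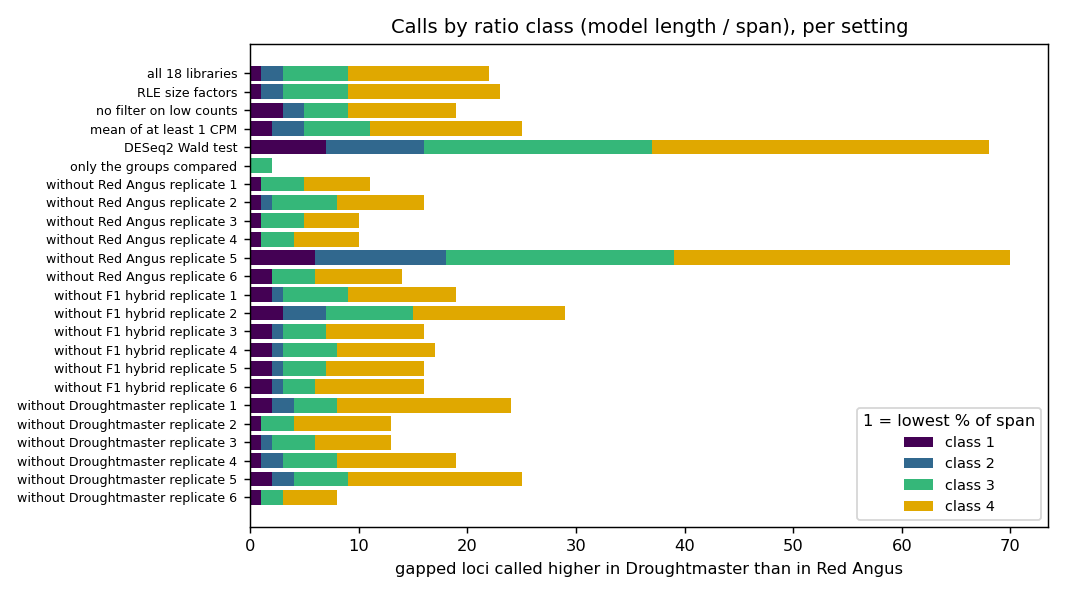
Number of gapped loci called higher in Droughtmaster than in Red Angus under each setting, as stacked bars coloured by ratio class. The total ran from 2 in the fit of the groups compared alone to 70 without Red Angus replicate 5, and class 4 had the most calls in every setting shown except the former.

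At 6 of the 24 called loci the call held in each of the 18 fits that left out a library. The smallest adjusted p of these was at chr8:86436553-86450406 on the plus strand, a model of 2548 bases over 13854. Its level was 12.1, 15.6 and 25.6 CPM in Red Angus (lowest, median and highest), 11.7, 16.03 and 25.2 in F1 and 20.2, 103 and 131 in Droughtmaster. Droughtmaster fell into 4 libraries at 95.85 CPM or more and 2, replicates 1 and 4, at 26.2 and 20.2 CPM, inside or next to the range of the other groups. The log2 difference from Red Angus was 2.37 ± 0.40 (SE; edgeR adjusted p = 0.00667), and it passed in every one of the 23 other settings.

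On chr18:63189939-63196970 (plus strand, 2364 of 7032 bases) no Droughtmaster library overlapped either other group. Red Angus ran from 4.52 to 11.4 CPM with a median of 5.85, F1 from 1.83 to 7.23 with a median of 4.83, and Droughtmaster from 14.2 to 39.4 with a median of 20.4. The log2 difference from Red Angus was 1.79 ± 0.36 (edgeR adjusted p = 0.0145). Together with the chromosome 8 locus it made up both calls of the fit without F1 libraries.

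Fewer reads lay behind chr12:86574023-86576459 on the minus strand, a model of 2215 of 2437 bases with a mean under 1 CPM. Red Angus libraries held 0 to 0.320 CPM with a median of 0.0843, F1 libraries 0.489 to 1.01 with a median of 0.709, and Droughtmaster libraries 0.607 to 5.52 with a median of 1.07. All 6 F1 and all 6 Droughtmaster libraries were above all 6 Red Angus libraries, which summed to 16 counts. The log2 difference of F1 from Red Angus was 2.43 ± 0.73 and did not pass (edgeR adjusted p = 0.9999). The log2 difference of Droughtmaster from Red Angus was 3.63 ± 0.75 (edgeR adjusted p = 0.0150) and 2.74 without Droughtmaster replicate 2, the library at 5.52 CPM (adjusted p = 0.0419).

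A model of 18891 of 20042 bases at chr5:45134299-45154340 (minus strand) was the longest among the called loci. It had 4.44, 8.22 and 12.9 CPM in Red Angus, 9.43, 13.8 and 20.8 in F1 and 12.8, 22.8 and 54.8 in Droughtmaster, where F1 lay between the parents and each neighbouring pair of groups overlapped. Its log2 difference was 1.70 ± 0.36 (edgeR adjusted p = 0.0176). It falls outside the naming rule and is given because it passed in all leave-one-out fits, a choice made after its values were seen.

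At chr25:40769869-40776312 (plus strand, 3244 of 6444 bases) F1 libraries were tightly grouped, from 3.31 to 5.36 CPM with a median of 4.37. Red Angus ran from 1.03 to 4.85 with a median of 2.64 and Droughtmaster from 4.21 to 36.1 with a median of 10.2. The log2 difference between the parents was 2.32 ± 0.47 (edgeR adjusted p = 0.0145), and 1.77 without Droughtmaster replicate 6, where the highest value was.

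The largest called difference was on an unplaced scaffold at bases 43652 to 296935, where the plus-strand model of 7379 bases covered 2.91% of 253284. Red Angus held 5 counts in 2 of 6 libraries and at most 0.107 CPM, and F1 held 27 counts in 2 libraries with a maximum of 1.14 CPM. Droughtmaster had 2.26, 5.38, 6.04, 7.06 and 13.4 CPM in 5 libraries and 0 in replicate 2. The log2 difference from Red Angus was 6.93 ± 1.32 (edgeR adjusted p = 0.0113), and the fitted value depends on the 5 counts in Red Angus. This locus entered the test through Droughtmaster, with 5 Droughtmaster libraries, 1 F1 library and 0 Red Angus libraries at the minimum level. In the fit without the F1 libraries this locus and the chromosome 12 locus had too few counts to be tested.

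Several other calls rested on particular libraries. At chr19:12782309-12788984 (plus strand, 5416 of 6676 bases) Droughtmaster replicate 3 had 120 CPM, while the other Droughtmaster libraries had 0.528 to 5.27 and Red Angus had 0 to 1.57. Its log2 difference of 5.15 ± 1.21 (edgeR adjusted p = 0.0302) became 2.16 without that library (adjusted p = 0.195), and the call was also lost without each of Red Angus replicates 1, 2, 3, 4 and 6. It too needed Droughtmaster to enter the test, with 5 libraries of the other groups at the minimum level. At chr5:99453513-99460573 (plus strand, 4384 of 7061 bases) replicate 6 had 78.6 CPM against 1.64 to 12.8 in the other Droughtmaster libraries and 0.419 to 3.49 in Red Angus. There the log2 difference of 3.80 ± 0.80 (edgeR adjusted p = 0.0174) became 2.38 without replicate 6 (adjusted p = 0.0551).

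Droughtmaster replicates 2, 3 and 6 were the high libraries at more than these loci. Among the 22 higher calls the highest Droughtmaster value was in replicate 6 at 8 loci, in replicate 2 at 7 and in replicate 3 at 4, and in replicate 5 at 0. At chr16:71032377-71072488 (minus strand, 11204 of 40112 bases) these 3 libraries had 14.8, 24.98 and 23.5 CPM and the other Droughtmaster libraries 2.52 to 6.15, with Red Angus at 0.787 to 3.38. Its log2 difference was 2.62 ± 0.57 (edgeR adjusted p = 0.0202), and the adjusted p was 0.0516, 0.0538 and 0.0534 without Red Angus replicate 4, Droughtmaster replicate 3 and Droughtmaster replicate 6.

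The short model at chr7:4914812-4915639 (plus strand, 567 of 828 bases) had the same libraries on top, at 17.5, 15.3 and 13.9 CPM in Droughtmaster replicates 6, 2 and 3. The other Droughtmaster libraries had 4.10, 4.32 and 7.66 CPM and Red Angus ran from 0.815 to 5.33. Its log2 difference of 2.09 ± 0.45 (edgeR adjusted p = 0.0207) missed the threshold without Red Angus replicate 4 (adjusted p = 0.0522) and without Droughtmaster replicate 6 (0.0549).

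The rest of the loci named by size of difference had smaller or less stable calls. These were chr24:1976657-1987261 (log2 difference 2.64), chr29:31667301-31675266 (2.46), chr2:15380305-15383331 (2.34), chr19:27228763-27230213 (2.14), chr3:119513600-119541775 (2.02) and, under 1 CPM, chr8:41277646-41284486 (2.71). Their calls held in 6, 6, 4, 13, 12 and 5 of the 18 leave-one-out fits in that order, with adjusted p-values up to 0.124. The last, chr8:41277646-41284486, needed Droughtmaster to enter the test, with 3 F1 and 0 Red Angus libraries at the minimum level.

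No overlap between Droughtmaster and Red Angus was seen at 8 of the 903 loci with Droughtmaster above, against a background of 0.817%, and at 4 with Droughtmaster below, against 0.824%. Of the 22 higher calls 3 were free of overlap: the chromosome 12 and chromosome 18 loci and chr2:135194460-135197978, at 0.244 to 1.60 CPM in Red Angus and 1.68 to 5.61 in Droughtmaster. The chromosome 2 locus lies outside the naming rule and was chosen after its values were seen.

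Both loci called lower in Droughtmaster lost the call when some libraries were left out. At chr4:5745992-5765405 (plus strand, 3408 of 19414 bases) Red Angus ran from 3.06 to 6.65 CPM with a median of 4.15, F1 from 2.66 to 5.95 with a median of 4.18, and Droughtmaster from 0.144 to 2.34 with a median of 1.23. Droughtmaster did not overlap either group, and the log2 difference from Red Angus was -1.74 ± 0.43 (edgeR adjusted p = 0.0378). The call held in 10 of the 18 leave-one-out fits, and the difference ran from -2.005 to -1.49 over them.

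At chr26:28774827-28782233 (minus strand, 1050 of 7407 bases) levels were near the floor. Red Angus had 0.0610 to 4.44 CPM with a median of 1.02, F1 had 0 to 0.597 and Droughtmaster had 8 counts in 3 libraries with at most 0.217 CPM. Its log2 difference was -4.09 ± 1.05 (edgeR adjusted p = 0.0446), held in 4 of the 18 leave-one-out fits. It entered the test through Red Angus, the high group, with 5 Red Angus libraries, 1 F1 library and 0 Droughtmaster libraries at the minimum level.

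**Figure D5:**
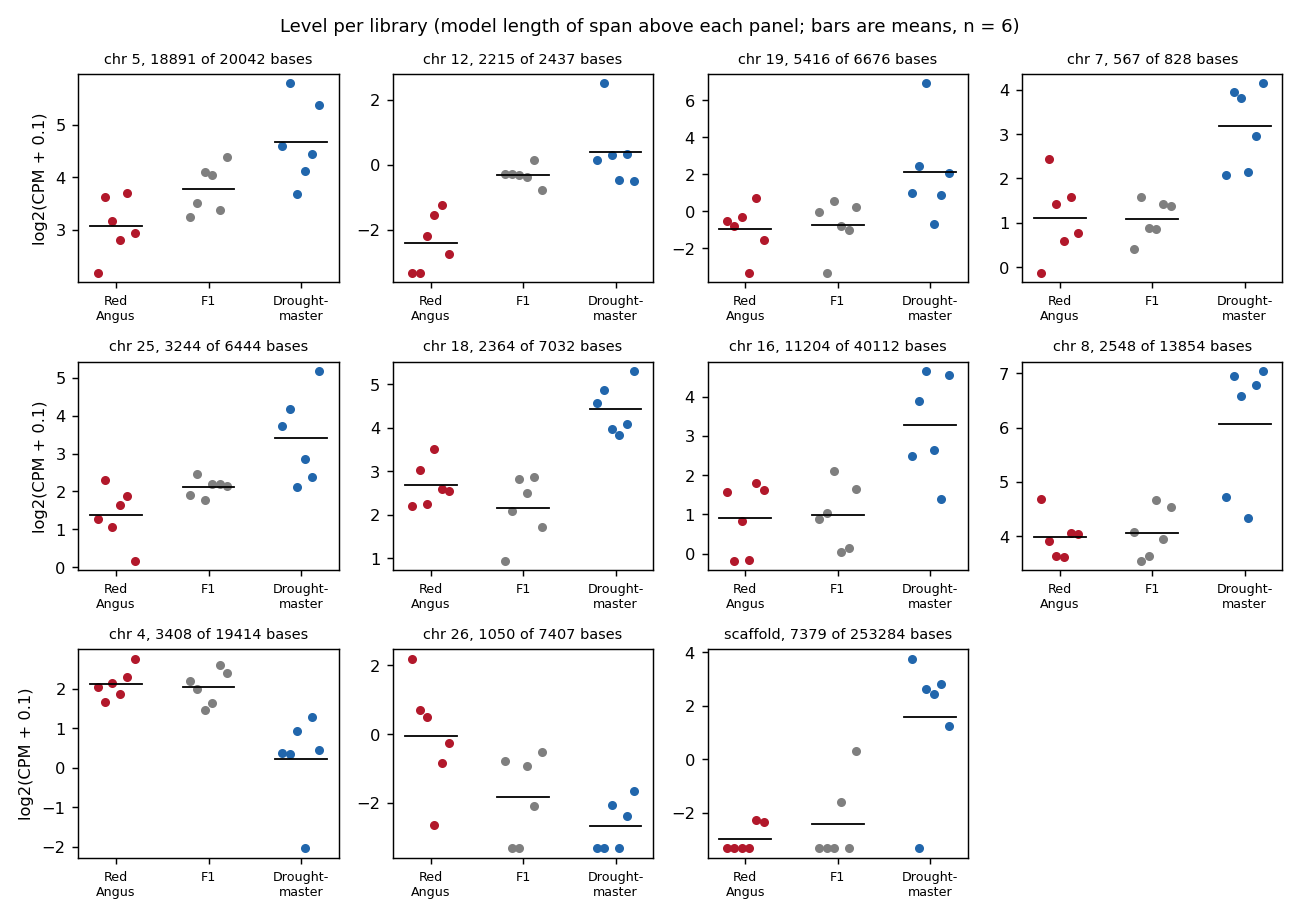
Level in each of the 18 libraries, as log2 of CPM plus 0.1, at the 11 gapped loci called lower in Droughtmaster than in Red Angus, called in both comparisons with Droughtmaster or called in every leave-one-out fit; bars are means of 6 and panels run from high to low ratio. Droughtmaster lies clear of both other groups on chromosomes 18 and 4, and a single Droughtmaster library lies far above the others on the 6676-base chromosome 19 locus.

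F1 leukocytes were lower than Droughtmaster leukocytes at 12 gapped loci and higher at 0 (edgeR, adjusted p under 0.05), with a background of 0.879% lower and 0.305% higher. The share of the 903 loci called lower was 1.33%, and the called differences ran from -4.94 to -1.31 with a median of -2.30 on the log2 scale. At unadjusted p under 0.05 there were 120 lower and 30 higher loci, 16.6% against a background of 14.1%. That background was made up of 1285 lower and 756 higher of 14446 features. The median difference over gapped loci was -0.26, against -0.01 over all tested features, and -0.28 against -0.04 with no filter on low counts. This comparison and the previous one share the 6 Droughtmaster libraries.

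The tested loci without a gap had 4 lower calls (3.85%) and a median of -0.21. By ratio the lower calls of gapped loci numbered 2, 0, 4 and 6 in classes 1 to 4, which is 1.56%, 0%, 1.63% and 1.86% of the loci tested, with little difference between the classes other than class 2. DESeq2 called 50 lower (3.76%, background 3%) and 9 higher (0.676%, background 1.01%). Leaving out libraries gave from 3 lower (0.317%, without F1 replicate 1, background 0.328%) to 21 lower without Droughtmaster replicate 1 (2.19%, background 1.65%) and without Droughtmaster replicate 4 (2.23%, background 1.55%). Without Droughtmaster replicate 3 there were 10 lower (1.02%, background 0.616%). Every F1 library was below every Droughtmaster library at 20 loci, against a background of 1.2%, and above at 7, against 0.879%.

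Droughtmaster was called against both Red Angus and F1 at 6 loci, which is 25% of the calls against Red Angus, 50% of those against F1 and 0.664% of the tested gapped loci. Over all features 115 (0.796%) were called against both in the same direction, 30.6% and 67.3% of the calls in each comparison, and the 2 comparisons share the Droughtmaster libraries. The 6 were the chromosome 8, 18, 7 and 16 loci above, chr19:12782309-12788984 and the scaffold locus, of which the last 2 entered the test only through Droughtmaster. On chromosome 18 the log2 difference of F1 from Droughtmaster was -2.27 ± 0.37 (edgeR adjusted p = 0.00702) and on chromosome 8 it was -2.28 ± 0.40 (adjusted p = 0.00962). These 2 passed in every leave-one-out fit.

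The chromosome 7 locus followed at -2.31 ± 0.46 (edgeR adjusted p = 0.0162, and 0.0519 without F1 replicate 1), with F1 at 1.23 to 2.90 CPM below every Droughtmaster library. The chromosome 16, chromosome 19 and scaffold loci differed by -2.58 ± 0.57, -4.94 ± 1.2 and -4.58 ± 1.11 (edgeR adjusted p = 0.0284, 0.0478 and 0.0478). Their calls held in 10, 5 and 5 of 18 leave-one-out fits, and without Droughtmaster replicate 3 the chromosome 19 difference was -1.90 (adjusted p = 0.363).

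At 6 loci F1 was called below Droughtmaster while the parents did not pass the test; whether the 2 differences differ was not tested. The smallest p of these was at chr19:48268579-48271539 (minus strand, 2618 of 2961 bases), with 4.56, 7.33 and 9.27 CPM in F1, 12.1, 16.99 and 27.4 in Droughtmaster and 6.23, 8.55 and 14.5 in Red Angus. F1 did not overlap Droughtmaster there, and the log2 difference was -1.31 ± 0.27 (edgeR adjusted p = 0.0183), lost without F1 replicate 1 (adjusted p = 0.0569).

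At chr29:50599695-50605824 (minus strand, 4907 of 6130 bases) F1 had 0.145 to 3.80 CPM, Red Angus 2.88 to 6.52 and Droughtmaster 3.46 to 43.6, with Droughtmaster replicates 2, 3 and 6 at 25.03 CPM or more. Its log2 difference was -2.94 ± 0.62 (edgeR adjusted p = 0.0220), held in 11 of 18 leave-one-out fits. At chr9:88519507-88522277 (minus strand, 1523 of 2771 bases) every F1 library (0.0543 to 0.541 CPM) was below every Droughtmaster library (0.780 to 3.93), with a log2 difference of -3.10 ± 0.70 (edgeR adjusted p = 0.0319). This call also held in 11 of 18 fits, and the locus needed Droughtmaster to enter the test, with 4 Red Angus and 0 F1 libraries at the minimum level.

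The other 3 were chr19:14879499-14882360 (log2 difference -1.74), chr10:38016527-38018973 (-1.55) and chrX:18889373-19103835 (-1.33), each without overlap between F1 and Droughtmaster. The X locus had a model of 3310 bases over 214463, the lowest ratio of the 3 at 1.54%, with F1 at 1.63 to 2.75 CPM and Droughtmaster at 2.77 to 8.2. This X locus overlaps other unannotated loci on both strands. The calls of the 3 loci held in 11, 8 and 9 of the 18 leave-one-out fits, in the order named.

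In the other direction the smallest p was at chr10:23332216-23332886 (minus strand, 456 of 671 bases). Every F1 library (1.80 to 4.45 CPM) was above every Droughtmaster library (0.251 to 1.64), and Red Angus ran from 1.159 to 4.06. The log2 difference of F1 from Droughtmaster was 1.84 ± 0.46, just outside the threshold (edgeR adjusted p = 0.0545).

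Between F1 and Red Angus no gapped locus passed the adjusted test, with 0 called in edgeR against a background of 0% in each direction and 0 in DESeq2. At unadjusted p under 0.05 the background was 3.23%, with 170 higher and 296 lower of 14446 features. Of the gapped loci 18 were higher and 36 lower, which is 5.98%. The smallest p belonged to chr3:119507257-119510348 (plus strand, 2980 of 3092 bases), with 5.57, 8.31 and 19.9 CPM in F1 and 1.03, 2.74 and 5.67 in Red Angus. These groups overlapped slightly, and the log2 difference was 1.85 ± 0.45 (edgeR adjusted p = 0.9999). It lies 3.252 kb from chr3:119513600-119541775, the locus called higher in Droughtmaster than in Red Angus, on the same strand. That called locus overlaps another unannotated locus on the opposite strand.

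In the lower direction the smallest p was at chr6:113211819-113264746 (minus strand, 3126 of 52928 bases), at 0.434 to 1.65 CPM in F1 and 0.498 to 7.99 in Red Angus, a log2 difference of -1.93 ± 0.61 (edgeR adjusted p = 0.9999). The chromosome 6 locus overlaps another unannotated locus on the opposite strand. F1 libraries were all above Red Angus at 2 loci (background 0.0554%) and all below at 0 (background 0.0415%).

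Against the mean of both parents on the log2 scale, F1 was called at 0 gapped loci in edgeR (background 0% in each direction) and at 4 in DESeq2, all lower (0.478%, background 0.349%). At unadjusted p under 0.05 there were 17 higher and 57 lower loci, 8.2% against a background of 5.97%. That background was made up of 279 higher and 584 lower of 14446 features. Among the 22 loci called higher in Droughtmaster than in Red Angus, the F1 mean lay between the parental means at 20 and below Red Angus at 2. It was nearer to Red Angus on the log2 scale at 18. These 22 loci were chosen by the parental difference in the same libraries, so the place of F1 among them is no test. The same counts over all called features are not given here.

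Gapped loci were unevenly spread along chromosomes. Of 1037 windows of 1 Mb that held any, the median held 1 locus and 7 held 10 or more, together 102 loci. The densest 3 were on chromosome 10, with 19 loci in chr10:22000001-23000000, 26 in chr10:23000001-24000000 and 14 in chr10:25000001-26000000. Cattle chromosome 10 carries the T cell receptor alpha and delta genes, whose segments are joined by rearrangement in T cells; whether these windows overlap them was not analysed here.

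The 59 loci of these 3 windows were short, with a median span of 763 bases, a median model of 465 bases and a median ratio of 67.6%, and 78.0% of them spanned under 2 kb against 31.7% of all gapped loci. Their summed level was 39.5 ± 8.50 CPM in Red Angus, 45.9 ± 13.2 in F1 and 27.5 ± 11.5 in Droughtmaster (SD, n = 6 each), with ranges of 27.3 to 49.9, 24.3 to 62.4 and 10.7 to 46.7 that overlapped. Of the 26 tested loci 21 had a lower fitted level in Droughtmaster than in Red Angus and 0 were called, with a median log2 difference of -0.39. The fitted level was higher in Droughtmaster at 49.7% of all tested features and 63.5% of tested gapped loci. The 26 loci lie close together and share the same libraries, so they are not independent, and their direction was not tested. The F1 locus at chr10:23332216-23332886 described above is among the 26.

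The next densest stretch, chr18:61000001-63000000, held 23 loci with a median ratio of 52.8%, of which 7 were tested and 0 called. Cattle chromosome 18 carries the leukocyte receptor complex, a region of immune receptor genes that varies in gene number between animals. The overlap with it was likewise not analysed here. Summed over the 23 loci, Red Angus had 9.58 to 31.4 CPM with a median of 16.7, F1 13.8 to 18.9 with a median of 15.6, and Droughtmaster 20.4 to 77.5 with a median of 39.3. F1 and Droughtmaster did not overlap in this sum, which was given no test because the stretch was chosen for its density after the data were seen. The most abundant of the 23 was chr18:62506499-62511181, with a mean of 12.5 CPM, and the called locus at chr18:63189939-63196970 lies beyond the end of the stretch.

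The most variable tested loci were on unplaced scaffolds and varied between libraries within each group. The locus at bases 543866 to 741357 of the scaffold that also holds the called locus, 246.9 kb from it on the same strand, had 0.0437 to 12.03 CPM in Red Angus, 0.473 to 24.5 in F1 and 0.502 to 73.5 in Droughtmaster. Its log2 difference between the parents was 2.34 ± 1.30 (edgeR adjusted p = 0.327). A locus at bases 62884 to 457498 of another scaffold had 18.3 CPM in a single Red Angus library and 33.3 in a single F1 library, with group medians of 0.236, 0.256 and 0.667.

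The most even loci were chr4:117357843-117362004, with a within-group SD of 0.21 log2 CPM, and chr23:9063654-9072511, with 0.24. The former had 2.92 to 4.50 CPM in Red Angus, 4.18 to 6.37 in F1 and 3.52 to 4.68 in Droughtmaster. The latter had 11.4 to 16.1, 8.03 to 12.7 and 11.4 to 19.8 CPM in the same order.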

How the data were processed

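Leukocyte mRNA libraries of 18 female cattle (3 breed groups of 6, from the breed label) were analysed. The submitters' processing notes name the build ARS-UCD1.2 and, with no order, featureCounts 1.5.0-p3, HISAT2 2.0.5 and DESeq2 1.16.1; the tool that made the unannotated models and the use of strand are not given in the sources used here. The deposited table holds raw read counts per feature, and the authors' second table gives start, end and model length of each unannotated locus. All 14446 features passing edgeR's filterByExpr were fitted at once (edgeR 4.0.16, TMM, robust quasi-likelihood F test, 3 groups, no covariate), with Benjamini-Hochberg adjustment over all of them and a threshold of 0.05. The 4 contrasts were made in that fit. CPM uses TMM-scaled totals, except in the filter, where totals were unscaled. Log2 CPM has a prior count of 2, and the SE is the log2 fold change divided by the root of F.

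Named loci are those past the threshold with a mean of at least 1 CPM (up to 12 per direction by size), up to 3 under 1 CPM, the smallest p where none passed, and the extremes of level per kilobase, ratio, span and spread. The members and lists were chosen with earlier results of these data known. Alternatives were RLE size factors, other filters, DESeq2 1.42.0, fits of the groups compared alone, an adjusted p under 0.01 and leaving out each library. The edgeR fit was tested on simulated counts, for Droughtmaster minus Red Angus only. Replicate numbers follow accession order.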

Additional observations from a re-analysis of the deposited data

Results flagged for a closer look

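Locus levels were examined as log2 CPM with a prior count of 2, and the numbers of detected loci and the shares of counts as they stand; the CPM printed here are linear. In 10 of 111 groups of 6 such values, the highest or lowest library stood further from its nearest neighbour, relative to the group's whole range, than Dixon's critical value for 6 values allows; at a rate of 1 in 20, chance gives 5.55. Of the 99 groups of locus levels 8 passed on the log2 scale and 14 would on linear CPM. No cause was tested for any of them.

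High libraries were Red Angus replicate 2 at chr3:119513600-119541775 (0.830 CPM, next 0.440), Droughtmaster replicate 3 at chr6:113211819-113264746 (9.54 CPM, next 2.59), Droughtmaster replicate 2 at chr12:86574023-86576459 (5.52 CPM, next 1.15) and Droughtmaster replicate 6 at chr19:14879499-14882360 (73.8 CPM, next 29.8). Low libraries were F1 replicate 2 at chr29:50599695-50605824 (0.145 CPM, next 1.89), Droughtmaster replicate 4 at chr4:5745992-5765405 (0.144 CPM, next 1.17), Droughtmaster replicate 2 at the scaffold locus of bases 43652 to 296935 (0 CPM, next 2.26) and Droughtmaster replicate 3 at chr14:81469564-81486737 (3.37 CPM, next 7.62). The chromosome 14 locus overlaps another unannotated locus on the same strand. F1 replicate 2 also had the fewest detected gapped loci of its group, 1212 against a next lowest of 1579. After thinning to the smallest total these were 1203 against 1479.5. Over all features this library also had the fewest detected of its group, 15507 against a next lowest of 17800.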

How the results depend on the processing

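No paired analysis was possible because the replicate numbers were assigned in accession order and the labels name no shared animal, batch or day. DESeq2 gave 68 higher and 19 lower for Droughtmaster minus Red Angus, 9 higher and 50 lower for F1 minus Droughtmaster, and 4 for F1 minus the parental mean; it tested 17064 features and its median over all features was 0.10 against -0.01 in edgeR, beside 0.29 for gapped loci. Fitting only the groups compared gave 2 higher and 0 lower for the parents (backgrounds 0.217% and 0.188%). No filter gave 0 lower for the parents (background 0.383%). An adjusted p under 0.01 left 1 higher and 0 lower for the parents and 2 lower for F1 minus Droughtmaster. The share of all features at 0.01 is not given here, so those counts are not read as a result about gapped loci. Leaving out each library in turn gave 8 to 70 higher and 0 to 10 lower between the parents, 0 to 4 higher and 3 to 21 lower for F1 minus Droughtmaster, and 0 for F1 minus Red Angus and F1 minus the parental mean. The 4 higher calls came without Droughtmaster replicate 1 (0.418%, background 0.633%). The median gapped difference between the parents stayed between 0.18 and 0.31 over the leave-one-out fits. The cause of these shifts was not tested. Of 888 refitted differences of single loci, 614 kept their side of the threshold, 272 lost it, 2 gained it and 0 changed sign. The 888 include differences that were not called, at chr3:119507257-119510348, chr6:113211819-113264746 and chr10:23332216-23332886. These gave 23, 23 and 21 of the 614 by staying outside the threshold, and the 2 gains were at the chromosome 10 locus. With the most abundant unannotated locus, an ungapped one, set aside, the ratio of gapped to ungapped counts went from 3.24 to 5.37 in Red Angus, from 3.76 to 5.19 in F1 and from 4.01 to 5.22 in Droughtmaster. At a minimum of 10 counts, libraries held 834.7, 826.5 and 842.8 gapped loci. Too few counts kept 1370 loci from being tested, and 287 of the 2273 had 10 counts or fewer in all.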

Other observations

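The second longest gapped locus, chr3:87798832-88431092, spans 632261 bases with a model of 1204 bases and was not tested. Of its 120 counts 115 were in Droughtmaster replicate 3, at 16.1 CPM, the library in which 1 feature held 44.6% of counts. Each of 4 other libraries had 1 or 2 counts and the remaining libraries had 0. The third longest, chr5:101881303-102452754, spans 571452 bases and was present in all 18 libraries, at 12.3 to 38.7 CPM in Red Angus, 11.7 to 47.6 in F1 and 5.44 to 43.9 in Droughtmaster.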
